A study of Drosophila melanogaster with 6 samples.

Results

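The dpr and DIP genes of Drosophila melanogaster were examined for binding intervals of Drgx, a Paired-like homeodomain transcription factor, in T4/T5 neurons. The members were listed by symbol, 21 dpr genes (dpr1 to dpr21) and 11 DIP genes (DIP-alpha to DIP-lambda), and made up 32 of 13922 protein-coding genes on 6 chromosome arms. Binding had been profiled by Targeted DamID, in which a bacterial adenine methylase (Dam), fused to the factor or alone, is expressed in chosen cells and marks the DNA it visits. The design set 3 Dam-Drgx samples, which carried the transgene UAS-Dam-DRGX, against 3 Dam-only samples, which carried UAS-Dam in its place. Both groups had the driver R23G12-Gal4, the membrane reporter UAS-CD8-GFP and tubGal80ts, a temperature-sensitive repressor of Gal4. Animals developed at 18 °C, larvae of the third instar were kept at 29 °C for 24 h, and whole brains were dissected, so the restriction to T4/T5 neurons rests on the driver.

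A single list of 2396 intervals was available for the series, with a score and a false discovery rate per interval as the authors gave them. It names no sample and was taken to be the outcome of setting Dam-Drgx against Dam-only. Library depth, the spread between replicates and the Dam-only signal at each gene were not analysed here, so no error and no test between samples accompanies any value. A gene without binding and a gene with too little signal to be called cannot be told apart from the list. The scale of the score is not stated, and it was used only to rank intervals within the list, where it ran from 1.24 to 6.47 with a median of 2.83. Any overlap of at least 1 bp between an interval and a gene extended by 1 kb at each end counted as an interval at that gene. Gene coordinates are those of Release 6, and BDGP6 is the build in the submitters' processing notes. The gene table gives no strand, exons or introns, so positions below run from the end with the lower coordinate and do not say which end holds the promoter.

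The dpr and DIP proteins carry immunoglobulin domains and sit on the surface of neurons. A dpr protein on one cell binds particular DIP proteins on another, and such pairs are known for matching pre- and postsynaptic partners in the fly visual system, at neuromuscular synapses and in the mushroom body. Different neuron types of the optic lobe express different combinations of the genes. Partner pairs named below come from general knowledge of binding surveys of the purified proteins. Only pairs considered sure were used, so the list may be incomplete. No pair was assigned to dpr7, dpr18, DIP-kappa or DIP-lambda, which does not mean that none is known.

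Of the 32 genes, 17 had at least 1 interval and 15 had none, where 10.9% of all protein-coding genes had one. The 17 genes were 14 of the 21 dpr genes (66.7%) and 3 of the 11 DIP genes (27.3%). They held 28 intervals, 24 at dpr genes and 4 at DIP genes, and no interval was counted at more than 1 member. At least 3 intervals were found at dpr1, dpr6, dpr10 and dpr12, which are 4 of 32 members (12.5%), against 1.12% of all protein-coding genes. For dpr1 and dpr12 this depends on the counting rule. The first dpr1 interval is centred 1.72 kb outside the gene. The strongest dpr12 intervals are 532 bp apart and become 1 when intervals within 1 kb are joined. With 2 intervals each followed dpr11 and DIP-beta. A single interval was found at dpr2, dpr3, dpr4, dpr7, dpr8, dpr13, dpr17, dpr18, dpr21, DIP-eta and DIP-kappa. The 15 genes without an interval were dpr5, dpr9, dpr14, dpr15, dpr16, dpr19, dpr20 and all DIP genes other than DIP-beta, DIP-eta and DIP-kappa. The DIP count rested in large part on arm 2L, which carries 6 of the 11 genes. Without that arm 1 DIP gene (DIP-beta) of 5 kept an interval.

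**Figure D1:**
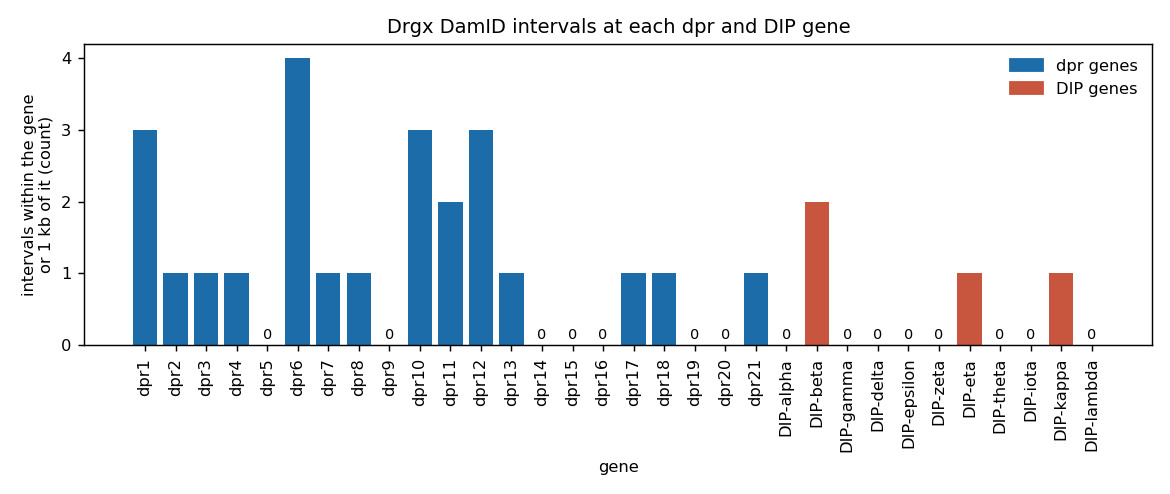
Number of intervals (vertical axis, count) that overlap each dpr gene (blue) and each DIP gene (red) or 1 kb on either side of it, with genes along the horizontal axis. The tallest bar is dpr6 with 4 intervals, followed by dpr1, dpr10 and dpr12 with 3 each, and 8 of the 11 DIP genes stand at 0.

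The first group of partners is DIP-alpha with dpr6 and dpr10, molecules that direct layer choice and survival of medulla neurons. Both dpr genes had several intervals, while DIP-alpha had none. At dpr6 (CG14162, 3L, 9974651 to 10139360, 165 kb), 3 of the 4 intervals lay between 23.3 and 55.1 kb from the lower end of the gene. The first spanned 9997912 to 10001473 and scored 2.85. The second, at 10013799 to 10014893, scored 3.04, and the third, at 10026023 to 10029715, scored 1.99. The first overlapped the gene lncRNA:CR45877 and the third overlapped lncRNA:CR45155, so these intervals can be assigned to either gene. The fourth, at 10139712 to 10141997 with a score of 2.38, lay outside the gene, 352 bp above its upper end and 110 kb from the third.

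The neighbour of dpr6 is dpr10 (CG32057, 3L, 10147454 to 10186108, 38.7 kb), and 8093 bp separate the genes. The fourth interval of dpr6 lay in that gap, 5456 bp from dpr10. Inside dpr10 stood the highest-scoring interval of the whole family. It spanned 10162928 to 10163540, only 613 bp, and had a score of 4.43, which ranked at position 150 of the 2396 intervals. Its false discovery rate was 5.71e-06. The other dpr10 intervals had scores of 2.72 (10171429 to 10174281) and 2.61 (10181782 to 10183556). Within 50 kb of dpr10 there were 7 intervals in all, and the same number within 50 kb of dpr6, in windows that overlap. These counts include the intervals of the genes themselves. The median over protein-coding genes of 20 kb and over was 2. By contrast, DIP-alpha (CG32791, X, 3507245 to 3571649, 64.4 kb) was far from any interval, the nearest being 76.1 kb below its lower end.

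The protein DIP-beta also binds dpr6 and dpr10 and, further, dpr8, dpr9 and dpr21. DIP-beta (CG42343, X, 21422115 to 21457738, 35.6 kb) was the DIP gene with most intervals. The first lay at 21424653 to 21426036, centred 3.23 kb from the lower end, and its score of 1.68 ranked at position 2350. The second lay at 21443857 to 21446921 with a score of 2.62. Both scores were under the list median of 2.83. The dpr8 gene (CG32600, X, 14322226 to 14462351, 140 kb) had 1 interval at 14448695 to 14450971 with a score of 2.70 and a false discovery rate of 2.34e-08. It was centred 12.5 kb from the upper end of the gene.

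At dpr21 (CG42596, 2R, 3066499 to 3191011, 125 kb) the only interval, at 3064892 to 3065566 with a score of 3.40, lay 933 bp below the lower end of the gene. It was the member nearest to the limit of 1 kb on the inner side and had no interval in the gene body. Just beyond the limit stood DIP-iota, 3330 bp from an interval with a score of 2.77, and dpr9 (CG33485, 3R, 15054930 to 15077206), 3930 bp from an interval with a score of 2.15.

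For DIP-gamma the partners are dpr11, dpr15, dpr16 and dpr17, and the pair of DIP-gamma and dpr11 is known for joining ultraviolet-sensitive photoreceptors to their amacrine target cells. Neither DIP-gamma (CG14521, 3R, 28925004 to 28970372) nor dpr15 or dpr16 had an interval. The nearest was 24.9 kb from DIP-gamma with a score of 3.44. At dpr11 (CG33202, 3R, 6529169 to 6593330, 64.2 kb) there were 2 intervals, both within 19.0 kb of the lower end. That at 6535575 to 6537257 scored 3.04, and that at 6546362 to 6548139 scored 2.74. The interval nearer the gene centre had the lower false discovery rate, 4.12e-07 against 0.00198, and lay within 1 kb of the gene Pif2. The dpr17 gene (CG31361, 3R, 12094876 to 12111420) had an interval at 12099403 to 12101608 with a score of 2.26. Its false discovery rate of 0.00883 is the largest in the list, a value that 127 intervals share. It stood at 3 of the 28 member intervals (10.7%, those of dpr3, dpr17 and DIP-eta), against 5.3% of the whole list. The neighbour of dpr17, dpr15, is 27.4 kb away, with no interval in between. Within 50 kb of dpr16 there were 9 intervals, against a median of 2 and a highest count of 17 over all protein-coding genes. The nearest was 24952 bp from the gene.

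The known partner of DIP-delta is dpr12, and the pair acts between mushroom body axons and dopamine neurons. Intervals were found at dpr12 and not at DIP-delta (CG34391, 3L, 5424109 to 5442399), whose nearest interval was 33.1 kb away. At dpr12 (CG34385, 2R, 5804712 to 5860831, 56.1 kb) the strongest intervals of the gene were neighbours near its centre, with 532 bp between them. That at 5835075 to 5835930 scored 3.47, and that at 5836463 to 5838401 scored 3.71. They had the same false discovery rate, 1.63e-10. The remaining interval, at 5822298 to 5824780, had a score of 2.12 and a false discovery rate of 0.00453.

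The proteins DIP-eta, DIP-theta and DIP-iota bind members of the group dpr1 to dpr5. Here 4 of the 5 dpr genes and 1 of the 3 DIP genes had an interval. The founding member, dpr1 (CG13439, 2R, 20698483 to 20750442, 52.0 kb), was first known from a mutant with a defective proboscis extension response to salt. Its 3 intervals were wide, from 3866 to 4743 bp, and none was centred more than 20.6 kb above the lower end of the gene. The first, at 20694424 to 20699099 with a score of 2.33, ran across the lower end, with 617 of its 4676 bp inside the gene. Its midpoint lay 1.72 kb below that end, and the gene CG13438 lay within 1 kb of the interval. The second, at 20708527 to 20712392, had a score of 1.81, and the third, at 20716671 to 20721413, had a score of 2.93 and a false discovery rate of 1.40e-09. With 19.0% of its window covered, dpr1 ranked first among the members of 20 kb and over.

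At dpr2 (CG33507, 2L, 10917015 to 10964153) the interval at 10934950 to 10939363 with a score of 2.59 lay inside the gene and overlapped CG14072. At dpr3 (CG33516, 2L, 2058790 to 2109878) the interval at 2057585 to 2059149 with a score of 2.07 ran across the lower end, with 360 bp inside the gene. It also overlapped Or22c, an odorant receptor gene. Neither dpr2 nor dpr3 had an interval when each interval was given only to the protein-coding gene nearest to its midpoint. For dpr2 this came from the rule for ties. The midpoint lay inside dpr2, and the interval went to a shorter gene that also held it. The dpr3 interval carried the largest false discovery rate of the list, 0.00883. The widest and lowest-scoring member interval lay at dpr4 (CG33512, 3R, 11533483 to 11542949). It spanned 11538525 to 11544583, 6059 bp across the upper end, with a score of 1.63. The neighbour dpr5, 27.5 kb away, had none, and its nearest interval was 13.7 kb below it. DIP-eta (CG14010, 2L, 5601723 to 5617946) had 1 interval at 5611065 to 5613702 with a score of 2.64 and a false discovery rate of 0.00883. This interval was also the nearest to DIP-theta, 12.6 kb from it.

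The proteins DIP-epsilon and DIP-zeta bind members of the group dpr13, dpr14, dpr19 and dpr20. In this group dpr13 alone had an interval. At dpr13 (CG33996, 2R, 17975122 to 18007902) it spanned 17993718 to 17996033, inside the gene, with a score of 3.21. The other 3 dpr genes are short, from 3.74 to 4.58 kb, and their nearest intervals were 14.0 kb (dpr20), 35.6 kb (dpr14) and 107 kb (dpr19) away. DIP-zeta was 42.3 kb and DIP-epsilon 87.1 kb from an interval.

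Among the members without an assigned partner, dpr7 (CG33481, arm 4, 247124 to 253329) had an interval at 253178 to 253949 with a score of 3.59. It ran across the upper end of the gene with 152 bp inside it. At dpr18 (CG14948, X, 16063738 to 16070304) the interval at 16062299 to 16066532 with a score of 1.97 ran across the lower end and also overlapped CG12395. DIP-kappa (CG31814, 2L, 13676860 to 13717320) had an interval at 13700211 to 13703463, inside the gene, with a score of 1.90. DIP-lambda (CG45781, 2R, 326768 to 705848) is the longest member, 379 kb, and had none. It lies at the lower end of 2R below the first interval of that arm, which starts at 1071847, and so do 2 other protein-coding genes. Whether reads could be placed in this region was not tested.

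**Figure D2:**
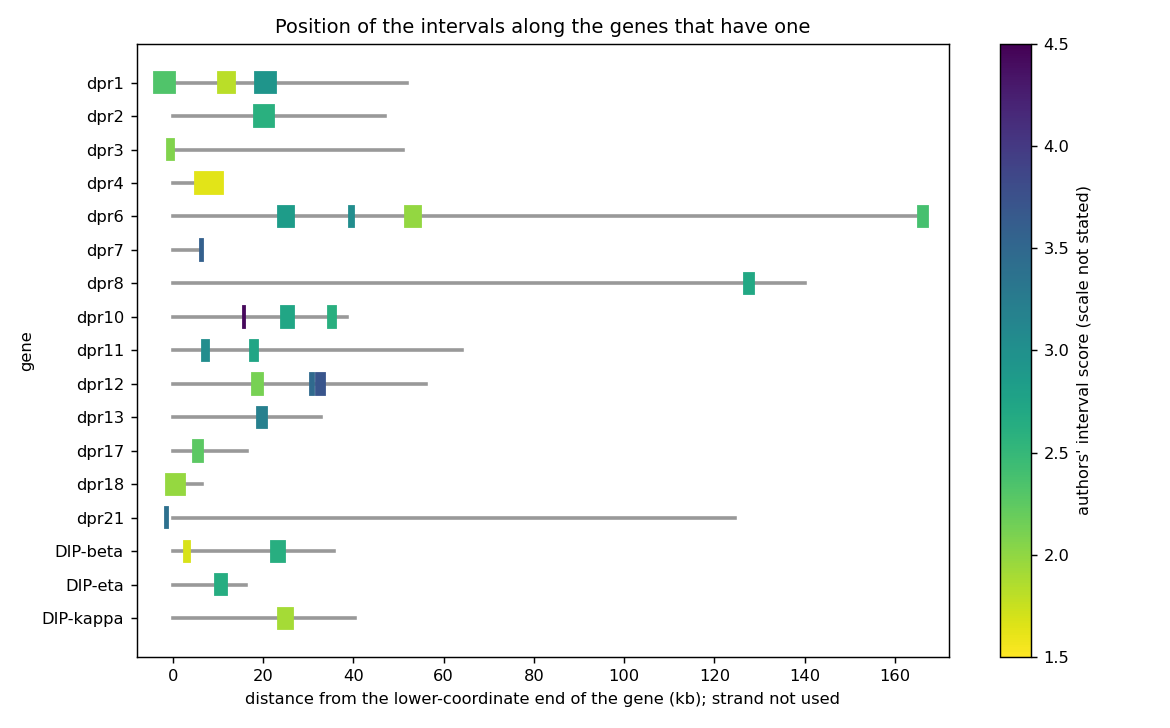
Each of the 17 genes with an interval is a grey line from its lower-coordinate end (0) to its upper end, in kb, and coloured blocks are the intervals, darker for a higher score of the authors. The darkest block lies in dpr10 (4.43), and the blocks of dpr1, dpr6 and dpr11 lie toward the lower end apart from the dpr6 block beyond its upper end.

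Set side by side by partner, 12 individual pairs could be read. Partners listed only as groups, those of DIP-eta, DIP-theta and DIP-iota and of DIP-epsilon and DIP-zeta, were not among the 12. In the first of these groups DIP-eta, dpr1, dpr2, dpr3 and dpr4 had an interval. Among the 12 pairs both genes had an interval in 4, all with DIP-beta: dpr6, dpr8, dpr10 and dpr21. The dpr gene alone had one in 5 pairs, which were DIP-alpha with dpr6 and dpr10, DIP-gamma with dpr11 and dpr17, and DIP-delta with dpr12. In the pair of DIP-beta with dpr9 the DIP gene alone had one. In the 2 pairs of DIP-gamma with dpr15 and dpr16 neither had one. These pairs share genes and are not independent, since DIP-beta alone enters 5 of them.

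**Figure D3:**
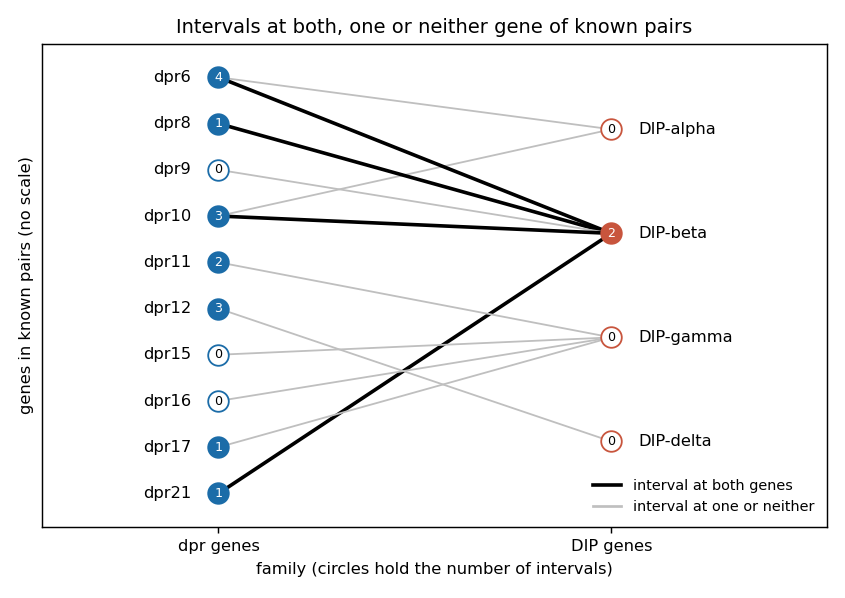
The 12 individual pairs of dpr genes (left) and DIP genes (right) are joined by lines, black where both genes have an interval. The number in each circle is the number of intervals (open circles, 0). Partners listed only as groups are not drawn. All 4 black lines end at DIP-beta, while DIP-alpha, DIP-gamma and DIP-delta have 0 intervals.

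Long genes meet more intervals, so the counts were also read by gene length. The dpr genes had a median length of 22.3 kb, the DIP genes 33.6 kb and all protein-coding genes 2.16 kb. Among genes of 50 kb and over, all 7 dpr genes and neither of the 2 DIP genes (DIP-alpha and DIP-lambda) had an interval, against 71.3% of 307 protein-coding genes. In gene bodies alone 6 of these 7 dpr genes, without dpr21, had one, against 216 of the 307. DIP-lambda lies below the first interval of arm 2R. Among genes of 20 to 50 kb, 3 of 4 dpr genes and 2 of 5 DIP genes had one, against 48.4% of 705. Among genes of 5 to 20 kb, 4 of 7 dpr genes and 1 of 3 DIP genes had one, against 15.5% of 2469. None of the 3 dpr genes and 1 DIP gene under 5 kb had one, against 5.46% of 10441. At least 3 intervals were found at 3 of 9 members of 50 kb and over (dpr1, dpr6 and dpr12), against 29.3% of all protein-coding genes of that length. The same held for 1 of 9 members of 20 to 50 kb (dpr10), against 7.66%, and for 0 of 10 members of 5 to 20 kb, against 0.446%. These classes hold few members, and no test was made of any of these shares.

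**Figure D4:**
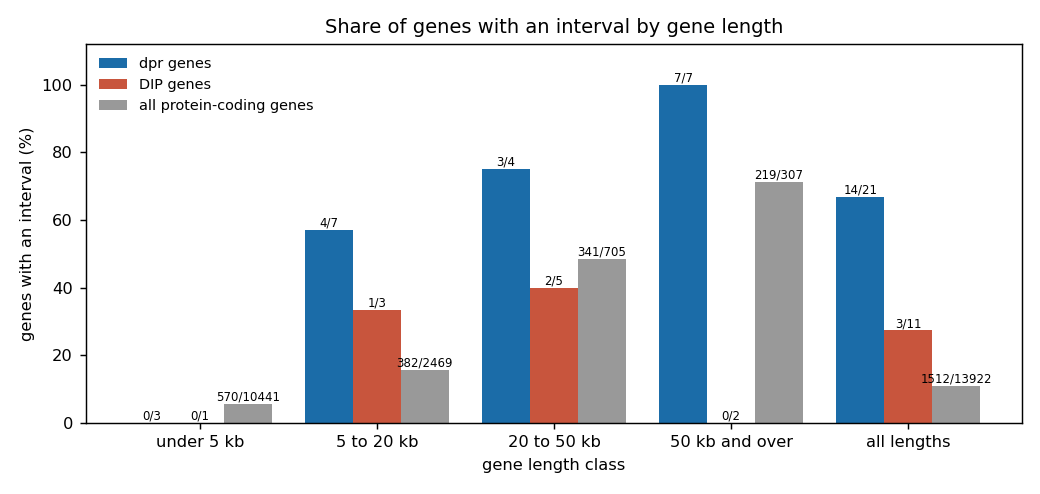
Share of genes with an interval (vertical axis, percent) in each length class for dpr genes (blue), DIP genes (red) and all protein-coding genes (grey), with the numbers of genes above the bars. The dpr bars are above the grey bars in the 3 classes from 5 kb up, and the DIP bars are below them from 20 kb up.

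Length was related to the number of intervals among the dpr genes (Spearman's rho 0.71 over 21 genes, as a description), while among the 11 DIP genes rho was -0.04. Over all 32 members rho was 0.44, and over all 13922 protein-coding genes it was 0.29. The DIP value includes DIP-lambda, the longest member, which had no interval. The 14 dpr genes with an interval had a median length of 49.1 kb, and the 7 without one 5.97 kb. The 3 DIP genes with an interval had a median length of 35.6 kb, and the 8 without one 32.9 kb. The intervals covered 5.99% of the dpr genes with their flanks and 1.45% of the DIP genes with theirs, against 2.67% over all protein-coding genes. By length, the dpr windows were covered to 4.75% at 50 kb and over, against 3.52% over all protein-coding genes of that length. At 20 to 50 kb the dpr share was 8.04%, against 4.4%, and at 5 to 20 kb it was 12.5%, against 2.35%. Under 5 kb it was 0%, against 1.23%. There were 2.57 intervals per 100 kb of dpr windows and 0.562 per 100 kb of DIP windows, against 1.75 over all protein-coding genes. At 50 kb and over the density was 2.25 for dpr and 0 for DIP genes, against 1.77 over protein-coding genes of that length. At 20 to 50 kb it was 3.36 and 1.52, against 2.37. At 5 to 20 kb it was 4.09 and 1.67, against 1.61. Under 5 kb neither family had an interval, against 1.48 per 100 kb. The DIP figures over all lengths include the 379 kb of DIP-lambda. The 2 DIP genes of 50 kb and over hold 447.49 of the 711.38 kb of DIP windows and no interval. The DIP windows were covered to 3.9% at 20 to 50 kb, against 4.4% over all protein-coding genes of that length. At 5 to 20 kb they were covered to 4.39%, against 2.35%, and under 5 kb to 0%, against 1.23%. The median distance from a gene without an interval to the nearest one was 22.3 kb for the 7 dpr genes and 37.7 kb for the 8 DIP genes, against 25.9 kb for all such protein-coding genes.

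Counting gene bodies alone, 16 of the 32 members had an interval, since dpr21 lost its own, against 8.32% of all protein-coding genes. By position, 21 of the 28 member intervals lay wholly inside the gene, 5 ran across an end and 2 (at dpr6 and dpr21) lay in the flank alone. The midpoint was over 5 kb from both ends of the gene for 19 intervals and within 2 kb of an end for 7. To place them along the genes, each gene was split into lower, middle and upper parts of equal length. Of the midpoints, 8 fell in the lower part, 12 in the middle and 3 in the upper, and 5 fell outside the gene. Another annotated gene was overlapped by 5 intervals, those of dpr2, dpr3 and dpr18 and 2 of dpr6. The other 23 overlapped no other gene. No matching counts for intervals at other genes of similar length are given here, so these positions describe the members alone.

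The member intervals were wider at the median than the whole list, and their median score was lower. Their median width was 2301 bp, against 1617 bp in the whole list. Their median score was 2.63, with quartiles of 2.11 and 3.04, against 2.83 in the whole list, with quartiles of 2.31 and 3.62. The 1083 intervals at protein-coding genes of 20 kb and over had a median width of 1778 bp and a median score of 2.82. Of the 28 member intervals, 10 (35.7%) scored at or above the list median, against 49.9% of those 1083. Scores above the list's upper quartile of 3.62 were reached by 2 of the 28, the interval of dpr10 with 4.43 and that of dpr12 with 3.71. Score and width ran against each other in the list, where wide intervals had lower scores. Of the 28, 21 were wider than the list median, and their median score was 2.61, against 2.55 for all intervals of that width. The 7 narrower ones had a median score of 3.40, against 3.39 for all narrower intervals.

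**Figure D5:**
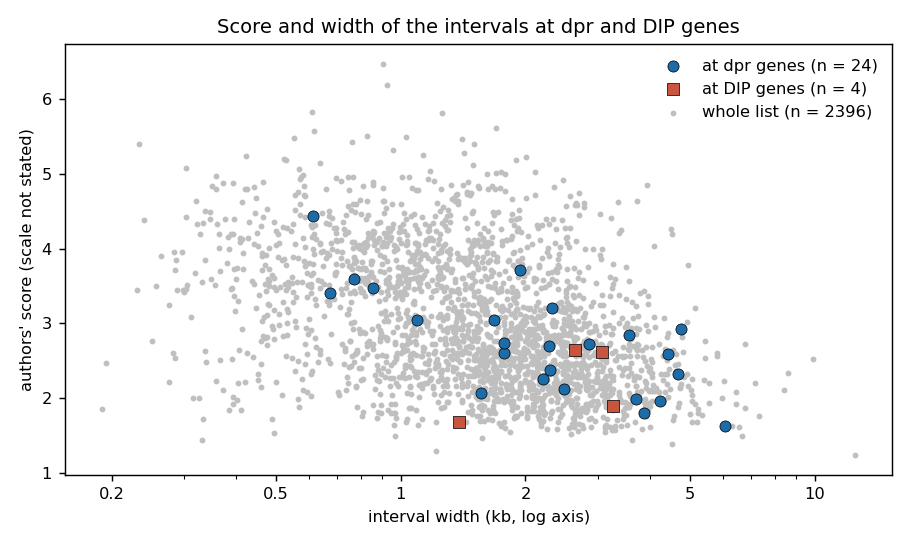
Score of the authors (vertical axis) against width in kb (horizontal log axis) for the 24 intervals at dpr genes (blue circles), the 4 at DIP genes (red squares) and the whole list (grey). Most member intervals lie to the right of 1617 bp, the median width of the list, and the highest is the 613 bp interval of dpr10 at 4.43.

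Relatives and binding partners of the family, and other surface proteins, were read in the same way. The gene of the binding partner cDIP (1.85 kb) had no interval. Lac, a relative of the DIP and dpr proteins in epithelial junctions and neurons, had 1 with a score of 4.17. Its relative klg, known from photoreceptor development, had 2, with scores of 3.77 and 3.00. The score of the Lac interval was higher than that of every member interval other than the dpr10 one. The beat and side genes form a further set of paired surface molecules. An interval was found at 9 of 14 beat genes and 6 of 8 side genes. Among genes of 20 kb and over, 10 of 11 dpr genes (90.9%) and 2 of 7 DIP genes (28.6%) had one, against 9 of 12 beat genes, 6 of 6 side genes and 55.3% of all 1012 protein-coding genes of that length. The differences between these families were not tested. The beat genes with an interval were beat-Ic, beat-IIa, beat-IIb, beat-IIIa, beat-IIIc, beat-IV, beat-Vc, beat-VI and beat-VII, with highest scores from 2.23 to 4.12. The side genes were side, side-II, side-III, side-V, side-VI and side-VIII, with highest scores from 2.28 to 4.64.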

How the data were processed

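The 6 libraries (3 Dam-Drgx, 3 Dam-only) are represented by a single deposited interval list without a header. The deposited score is 1 positive number per interval with 2 decimals. The deposited false discovery rate stands beside it and is another value of the authors whose computation is not stated. The aligner, the peak caller, any filter and the treatment of replicates are not given in the sources used here. The build BDGP6 is named per the submitters' processing notes. No column of the list belongs to a sample, so depth and replicate error were not analysed here.

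Starts were raised by 1 from the zero-based convention. Intervals on the 6 arms (2394) were set against RefSeq genes of Release 6 (17684 genes, 13922 protein-coding; no strand or exons), and 32 of 32 symbols matched. Promoter and protein sequences were not used here. The members, partner pairs and related genes were chosen with earlier results of these data known. Every member is named, and of the beat and side genes those with an interval. Alternatives were gene bodies alone, flanks of 2 and 5 kb, midpoint or majority overlap, stricter lists, joining within 1 kb, the protein-coding gene nearest to the midpoint and at most 1 kb from it (the shorter gene where several hold the midpoint) and leaving out each arm, which was added after seeing the data. Overlap counting was tested on simulated data. The scripts ran under Python 3.11.15 with pandas 2.3.3, numpy 2.4.6, scipy 1.17.1 and matplotlib 3.10.9.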

Additional observations from a re-analysis of the deposited data

How the results depend on the processing

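No paired analysis was possible because the list names no sample, and leaving out a replicate was not run for the same reason. Gene bodies alone, flanks of 2 kb, midpoint or majority overlap, joining and the nearest gene kept the counts of members and intervals within 1.5 times. The number of members with at least 3 intervals is not given for these settings. With flanks of 5 kb, 19 members (15 dpr and 4 DIP genes, with dpr9 and DIP-iota added) had 30 intervals, and 19.9% of all protein-coding genes had one, against 10.9% with 1 kb. The stricter lists hold fewer intervals by construction. Among the 1203 highest-scoring intervals, 8 members (8 dpr and 0 DIP genes) had 10 intervals, against 5.92% of all protein-coding genes. Among the 1214 with the lowest false discovery rates, 10 members (0 DIP genes) had 14 intervals, against 5.62%. Without arm 2L, 1 DIP gene had an interval. Over the 10 settings that keep all arms, 6 members (dpr1, dpr6, dpr7, dpr10, dpr11 and dpr12) had an interval in each and 13 in none. The largest change at a single gene was that of dpr21, with an interval in 5 of 10. In the nearest-gene setting, which required the midpoint to lie at most 1 kb from the gene and gave ties to the shorter gene, dpr2, dpr3 and dpr21 had none. The midpoint of the dpr21 interval lay 1.27 kb from that gene. What the depth of the libraries limits was not analysed here.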
